A study of Homo sapiens with 8 samples.

Results

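In the poly(A) 3′-sequencing peaks of human neuroblastoma (NB) cells, 8058 peaks ended next to a long run of A in the genome itself. A peak counted as such when it overlapped genes of 1 strand only and when the 50 bp after its 3′ end, read on the gene strand of GRCh38, held 25 bases with at least 22 A. These peaks are called A-stretch peaks here. They were 8058 of the 125588 peaks with genes on 1 strand, or 6.42%, in a list of 153624 peaks. The libraries came from Kelly cells, an NB line that carries extra copies of MYCN, and from its derivative Kelly E9R with a point mutation in CDK12 at the cysteine that THZ531 binds. THZ531 inactivates CDK12 and CDK13, kinases of transcription elongation, by a covalent bond. Both lines received either the solvent DMSO or 400 nM THZ531 for 6 h, in biological duplicate, which gave 8 libraries in 4 groups of 2. The dose is that of the labels, and the study's own text gives a lower one for these lines. All 8 libraries were merged before peaks were called, so the list has no value per library and THZ531 could not be compared with DMSO.

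Transcripts of most protein-coding genes are cleaved downstream of a hexamer such as AATAAA and receive a poly(A) tail that the genome does not encode. The libraries were primed with oligo(dT), which can also anneal to a run of A inside a transcript, a well-known property of such protocols called internal priming. Long runs of A are common in introns because Alu elements, retroposed descendants of the 7SL RNA gene, end in an A-rich tail. The filter of the study removed a peak when an A stretch followed it and no hexamer preceded it. The deposited list still holds 6708 such peaks by the rule above, so it is described here as a list to which this filter had not been applied.

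Some of the strongest intronic A-stretch peaks are printed to show what the rule selects. Each line gives 70 bases before the 3′ end of the peak and the 50 bases after it, on the gene strand. Capitals mark the 25 bases with the most A after the peak end and, where there is one, the hexamer nearest to that end.
BMPR1B, chr4:94907962-94908080, forward strand: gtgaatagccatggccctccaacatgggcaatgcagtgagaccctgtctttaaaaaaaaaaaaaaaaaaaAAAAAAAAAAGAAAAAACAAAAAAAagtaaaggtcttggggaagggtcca
N4BP2L2, chr13:32526836-32526957, reverse strand: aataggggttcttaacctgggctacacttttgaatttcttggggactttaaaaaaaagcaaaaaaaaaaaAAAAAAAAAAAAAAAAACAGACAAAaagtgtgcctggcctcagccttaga
EXOC4, chr7:133661567-133661680, forward strand: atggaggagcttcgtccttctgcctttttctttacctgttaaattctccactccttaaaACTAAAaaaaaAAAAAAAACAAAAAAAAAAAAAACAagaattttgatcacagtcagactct
In BMPR1B, which encodes a receptor of bone morphogenetic proteins, 25 reads covered the summit and no hexamer preceded the end. The peaks in RERG, a Ras-related growth inhibitor, and in N4BP2L2 had pileups of 24 and 30 reads and lacked a hexamer as well. The peak in EXOC4, a subunit of the exocyst, had a pileup of 21 reads, and its hexamer ACTAAA began 11 bp before the end and was followed by A alone up to it. In SLC7A5, a transporter of large neutral amino acids, the pileup was 18 reads and the hexamer AATACA began 49 bp before the end. The pileup is the number of reads counted by the peak caller, each extended to 100 bp, over the highest point of the peak. How duplicate reads were treated is not given in the sources used here. No peak with genes on 1 strand had a pileup above 100, and the 9 peaks above it, up to 187, all had genes on both strands. If 1 read per position and strand was kept, the pileup counts positions and cannot pass 100 per strand, which would compress differences in height. This was not tested.

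The rule used the A count, so its strand asymmetry is a description. The same window placed at the other end of each peak and read on the opposite strand held a stretch in 711 peaks, or 0.566% (95% Wilson interval 0.526 to 0.609%). A stretch on the gene strand alone was found in 8055 peaks and on the opposite strand alone in 708. These intervals treat peaks as independent and cover counting error only. Within introns 8.70% of 88088 peaks preceded a stretch, within exons 0.835% of 18916 and at transcription end sites (TES) 1.28% of 18584. The opposite strand gave 0.705% in introns, 0.196% in exons and 0.285% at TES. The share lay between 5.55% on chromosome 13 and 7.71% on chromosome 16 for every chromosome except Y, where it was 13 of 97 peaks.

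**Figure D1:**
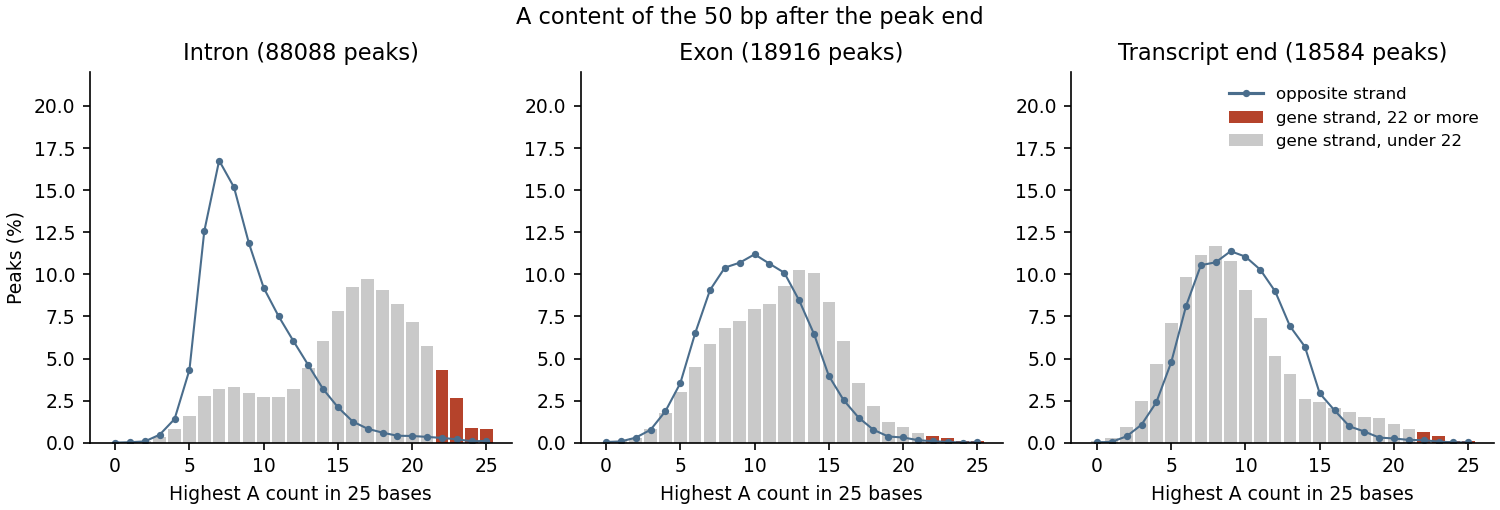
The plot gives the highest number of A in 25 consecutive bases within the 50 bp after the peak end (horizontal axis) against the share of peaks (vertical axis, %) for introns, exons and TES. Bars are the gene strand, with the A-stretch peaks in red, and the line is the opposite strand. Intronic peaks have a main mode at 17 A and a lower one at 8 A, and TES peaks have their mode at 8 A.

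The threshold of 22 A fell within the upper tail of a broader distribution. Intronic peaks had 1 mode at 8 A and another at 17 A, and the A-stretch peaks formed the upper tail of the second, as the plot of A counts shows. Intronic peaks with 21 A numbered 5060 and those with 22 A 3809. Just outside the threshold, at 21 A, the median pileup was 8 reads and 74.1% followed 7SL-like sequence. Just inside, at 22 A, these values were 8 reads and 79.0%. Among the A-stretch peaks 4010 had 22 A, 2488 had 23 A, 788 had 24 A and 772 had 25 A in 25 bases. With a minimum of 20 A the rule would take 16.0% of the peaks with genes on 1 strand, and with 25 A 0.615%.

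The stretch as scored lay directly at the peak end in nearly all members. The search began at the first base after the peak, so a run of A that started inside the peak was scored from that base. The richest 25 bases started directly after the last base of the peak in 7476 of the 8058 peaks (92.8%). The share of A was 77.9% at the last base inside the peak, 92.5% at the first base after it and 99.1% at the fourth. It remained at 90.8% at base 18 and was 69.0% at base 25, 44.2% at base 30 and 36.5% at base 35. Other intronic peaks had A in 66.5% of cases at the first base, in 71.4% at the third and in 34.5% at base 25. Other TES peaks had A in 44.7% at the first base and in 25.9% at base 10. The median width was 102 bp for A-stretch peaks and 106 bp for the other peaks, and the summit lay a median of 51 bp and 55 bp before the 3′ end. Since reads were extended to 100 bp, these widths are close to that of a single extended read.

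**Figure D2:**
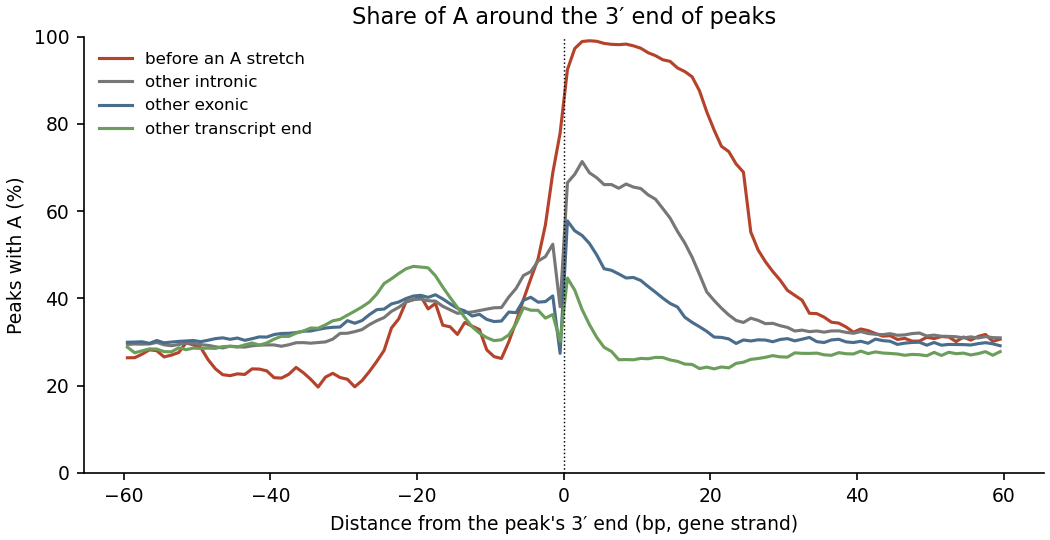
The horizontal axis is the distance in bp from the 3′ end of the peak on the gene strand and the vertical axis the share of peaks with A at that base (%). The line of A-stretch peaks rises to 99.1% after the end and has dropped to 44.2% by base 30, and the other intronic peaks reach 71.4% at the third base.

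A-stretch peaks were mainly intronic. Introns held 7662 of the 8058 peaks, or 95.1% (94.6 to 95.5%), compared with 68.4% of the 117530 other peaks with genes on 1 strand. The difference was 26.7 percentage points (95% Newcombe interval 26.1 to 27.2). Peaks with the stretch on the opposite strand alone were intronic in 618 of 708 cases, or 87.3% (84.6 to 89.5%). TES windows, with 200 bp on the gene side and 600 bp on the far side of each annotated end, held 238 A-stretch peaks (2.95%, against 15.6% of the other peaks). Exons held 158 (1.96%, against 16.0%). Protein-coding genes carried 92.3% of the intronic A-stretch peaks and long noncoding RNA genes 6.83%.

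Hexamers were less frequent before A-stretch peaks than before other peaks. Of the 125588 peaks with genes on 1 strand, 58.1% had at least 1 of the study's 12 hexamers in the 100 bp before their 3′ end. Among A-stretch peaks it was 1350, or 16.8% (16.0 to 17.6%), and among the other peaks 60.9%, a difference of -44.2 points (-45.0 to -43.3). The remaining 6708 A-stretch peaks had none. The hexamers were read on the gene strand and may overlap each other. In introns the shares were 15.9% and 53.6%, in exons 32.3% and 67.5%, and at TES 32.4% and 86.4%. All 3 intervals of the difference excluded 0. Peaks with the stretch on the opposite strand alone had a hexamer of that strand in 18.5% of 708 cases. A-stretch peaks differed from these by -1.75 points (-4.88 to 1.06), an interval that included 0.

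The opposite strand gives the frequency of these short motifs at the same loci, but it is not matched in A content. A-stretch peaks were selected for A on the gene strand, and the run often reached back into the bases searched for hexamers. At the second base from the end inside the peak, 68.8% had A. All 12 hexamers are rich in A, so the tests below cannot separate an excess due to the rule from one due to signals. In the mirror window 12.1% of A-stretch peaks had a hexamer, compared with 16.8% on the gene strand. For the other peaks the shares were 41.4% in the mirror window and 60.9% on the gene strand. A hexamer was present on the gene strand alone in 905 A-stretch peaks and on the opposite strand alone in 526 (exact McNemar test, two-sided, p = 9.05e-24). In introns the counts were 839 and 486 (p = 2.29e-22, same exact test). At TES they were 42 and 20 (p = 0.00715, same exact test). In exons, 24 and 20 did not pass the test (p = 0.652, same exact test).

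The canonical hexamer was the one most depleted. AATAAA preceded 262 A-stretch peaks (3.25%) and 27.9% of the other peaks, a ratio of 0.117. For its most common variant ATTAAA, before 169 A-stretch peaks, the shares were 2.097% and 12.1%. The most frequent motif before A-stretch peaks was AAGAAA with 294 peaks (3.65%), compared with 13.2% of the other peaks. ACTAAA differed least, with 2.21% and 3.47%, a ratio of 0.636. ACTAAA preceded 178 A-stretch peaks. Of the other motifs, AATGAA was found before 152, AATAGA before 149, AGTAAA before 145, AATACA before 127, AATATA before 118, TATAAA before 109, CATAAA before 83 and GATAAA before 69. At TES, AATAAA preceded 10.9% of the 238 A-stretch peaks (7.56 to 15.5%) and 56.5% of the other peaks.

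The hexamers that were present also lay at less regular distances. In A-stretch peaks with a hexamer, the nearest one began a median of 25 bp before the end, with quartiles of 12 and 51 bp. In the other peaks with a hexamer the median was 24 bp and the quartiles 16 and 36 bp. Between 10 and 35 bp before the end, the range where cleavage signals usually lie, fell 47.6% of the nearest hexamers of A-stretch peaks (44.9 to 50.2%) and 62.9% of those of the other peaks, a difference of -15.3 points (-18.0 to -12.6). At TES the shares were 54.5% of 77 and 79.2% of 15857.

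Sequence related to 7SL RNA preceded most A-stretch peaks. The 300 bp before the 3′ end matched the RN7SL1 gene on the gene strand in 6226 peaks, or 77.3% (76.3 to 78.2%), and in 25.1% of the other peaks, a difference of 52.2 points (51.3 to 53.1). On the reverse strand it was 1.43% and 3.55%. The best match per peak had a median length of 68 bases (quartiles 59 and 76) of the 299 bases of RN7SL1 and a median identity of 82.9%. In introns 78.6% of A-stretch peaks and 33.9% of other peaks followed such sequence, in exons 47.5% and 5.41%, and at TES 55.0% and 6.37%. The A stretches of coding-gene introns, described below, were also searched, with or without a peak. Of 33376 on the gene strand 80.8% followed 7SL-like sequence, and of 53926 on the antisense strand 76.8%. Peaks with the stretch on the opposite strand alone followed 7SL-like sequence of that strand in 71.0% of 708 cases, 6.22 points fewer than the A-stretch peaks (2.87 to 9.78). Reads from such repeats can map to several places, which the mapping allowed up to a limit, and the part of this in the peak positions was not tested.

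Sequence like 7SL was less frequent before peaks with a hexamer than before peaks without one. In introns 86.3% of the 6440 A-stretch peaks without a hexamer and 37.8% of the 1222 with one followed 7SL-like sequence, a difference of -48.5 points for those with a hexamer (-51.3 to -45.6). In exons the shares were 61.7% of 107 and 17.6% of 51, and at TES 73.9% of 161 and 15.6% of 77. Other intronic peaks had the same direction, with 53.3% of 37348 without a hexamer and 17.1% of 43078 with one. Conversely, 7.76% of the 6226 7SL-like A-stretch peaks and 47.3% of the other 1832 had a hexamer. The lower hexamer frequency was present in each class. Among 7SL-like peaks it was 28.5% for the peaks with no A stretch, and A-stretch peaks differed from them by -20.8 points (-21.6 to -19.9). Among peaks that are not 7SL-like it was 71.7%, and the difference was -24.4 points (-26.7 to -22.1). AATAAA was found before 0.980% of the 7SL-like A-stretch peaks and before 10.97% of the rest.

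**Figure D3:**
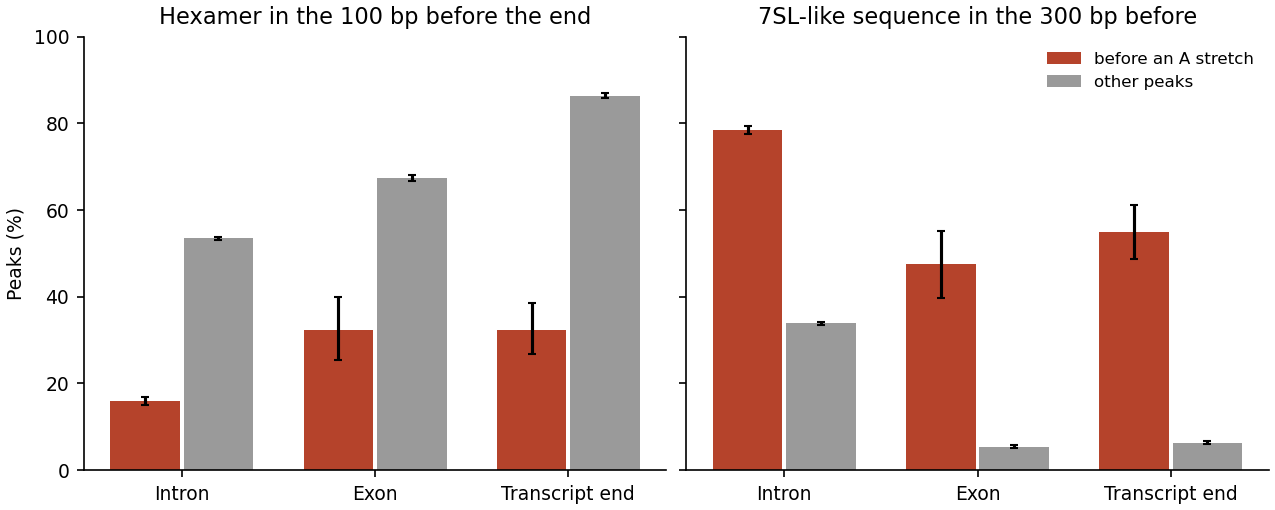
Bars give the share of peaks (vertical axis, %) with a hexamer in the 100 bp before the end (left) and with 7SL-like sequence in the 300 bp before it (right), for introns, exons and TES. Error bars are 95% Wilson intervals. A-stretch peaks have 15.9 to 32.4% with a hexamer, below the other peaks in all 3 regions, and 47.5 to 78.6% with 7SL-like sequence, above them in all 3.

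Among the 1832 A-stretch peaks without a 7SL-like match, the 12-base sequence below was the most frequent in the last 100 bp, after leaving out A-rich ones and those shared with the 7SL-like peaks. It was chosen after its counts were seen.
Leading 12-base sequence: tgcacatgtacc
It was present in 45 of the 1832 peaks (2.46%) and in 750 of the other 117530 (0.638%). As background, this sequence lies close to the 3′ end of LINE-1 retrotransposons, which end in an A-rich tail of their own. The 10 leading sequences of this kind together marked 60 of the 1832 peaks (3.28%) and 1150 of the other 117530 (0.978%). Most of the 1832 peaks were thus left without a named repeat. The 10 sequences were picked from these same peaks and most overlap each other, so they do not measure how many peaks follow a repeat.

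Pileups were compared within each region, with the limit on the pileup given above. The main mode of all intronic peaks was at 17 A, so many of the other intronic peaks were also rich in A after their end. The comparison in introns, here and for the q values below, is thus not one with peaks free of such runs. In introns, the median pileup of peaks without a hexamer was 7 reads (quartiles 6 and 10) for A-stretch peaks and 8 reads (6 and 11) for others. With a hexamer it was 8 reads in both, with quartiles of 6 and 11. In exons the medians were 11 without and 14 with a hexamer, both for A-stretch and for other peaks. At TES they were 9 and 12 reads for A-stretch peaks and 13 and 17 reads for the others. The highest A-stretch peaks reached 30 reads in introns, 40 in exons and 54 at TES, and the highest other peaks 98, 86 and 100 reads.

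**Figure D4:**
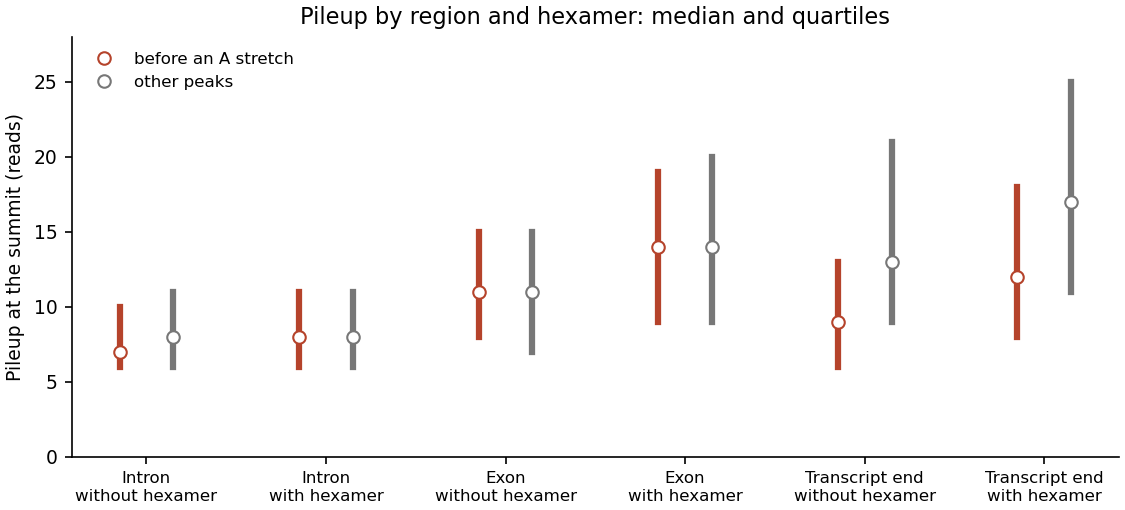
Circles are medians and bars the range between quartiles of the pileup at the summit (vertical axis, reads), for peaks in introns, exons and at TES with and without a hexamer. The medians of A-stretch and other peaks differ by at most 1 read in introns and exons, and at TES the A-stretch peaks are lower, with medians of 9 and 12 reads against 13 and 17.

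A threshold of 5 on the −log10 q shows how many peaks a stricter call keeps. Of all peaks with genes on 1 strand, 73.6% passed it, and of A-stretch peaks 68.7% (67.7 to 69.7%). In introns 68.2% of A-stretch peaks and 68.0% of other peaks passed, a difference of 0.121 points with an interval of -0.979 to 1.20. At TES 77.3% and 90.8% passed, a difference of -13.5 points (-19.3 to -8.63). Among intronic A-stretch peaks 73.2% of those with a hexamer and 67.2% of those without passed, 6.04 points apart (3.24 to 8.71).

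How often an intronic A stretch had a peak was measured from the genome side. Introns of 7630 protein-coding genes that had a TES peak, outside genes of the other strand, held 33376 stretches of at least 22 A in 25 bases on the gene strand and 53926 on the antisense strand, 1.62 antisense stretches for each sense one. A peak end lay inside or within 50 bp before 13947 of the sense stretches, or 41.8% (41.3 to 42.3%). On the antisense strand it was 525, or 0.974% (0.894 to 1.06%), a difference of 40.8 points (40.3 to 41.3). An A-stretch peak by the rule above was present at 5679 sense stretches (17.0%). The other 8268 stretches with a peak (59.3%) had only peaks that did not meet the rule. Their median length was 30 bases, compared with 34 bases for stretches with an A-stretch peak. The rule counts only A after the peak end. At 13489 of the 13947 sense stretches with a peak, a peak end lay inside the stretch. With the window moved 20 bp into the peak, 15.7% of the peaks with genes on 1 strand preceded a stretch. What the place of the peak end contributes was not tested.

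The share with a peak varied with the length of the stretch. It was 29.6% at 25 bases, 36.2% at 26 to 30, 48.7% at 31 to 35 and 51.3% at 36 to 50 bases. Above 50 bases it was 41.8% of 208 stretches (35.3 to 48.6%). Antisense stretches stayed between 0.790% and 2.18% over the same lengths. A longer stretch also has more positions at which a peak end is counted.

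It also varied with the pileup at the end of the gene. Genes were divided by the highest pileup of their TES peaks. At up to 14 reads 32.1% of sense stretches had a peak, from there to 21 reads 44.4%, to 29 reads 47.5% and above 29 reads 46.3%. The highest and the lowest of these quartiles differed by 14.2 points (12.7 to 15.7). The antisense values were between 0.883% and 1.12%. Genes above 102 kb had a peak at 43.4% of sense stretches and genes up to 23.04 kb at 36.4%, 7.02 points apart (4.67 to 9.32).

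Along genes, divided into 10 parts of equal length, the share was highest near the start. In the first part 46.8% of 3036 sense stretches had a peak (45.1 to 48.6%). From the third to the eighth part the share lay between 41.8 and 42.6%, in the ninth it was 38.7% and in the last 33.8% of 2563 (32.0 to 35.6%). The last part differed from the first by -13.0 points (-15.6 to -10.5). Stretches after 7SL-like sequence had a peak in 42.1% of cases and the others in 40.4%, a difference of 1.68 points (0.338 to 3.02). In these merged bulk libraries, fewer cells with a transcript and less of it per cell cannot be told apart.

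**Figure D5:**
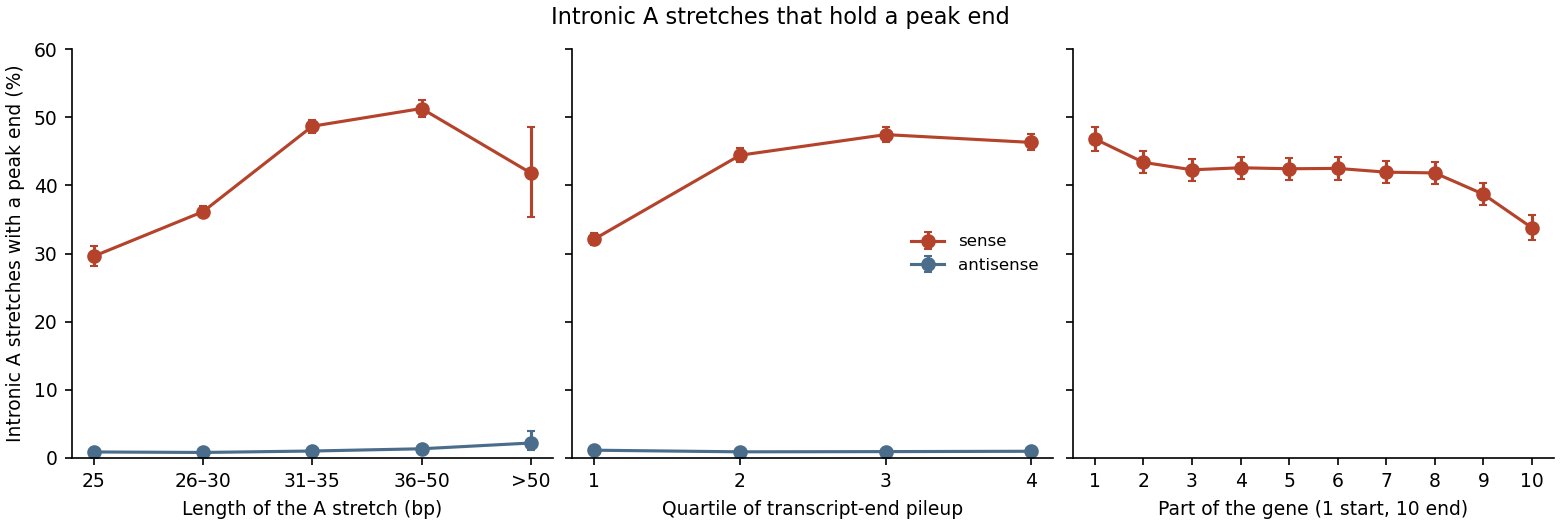
The vertical axis is the share of intronic A stretches with a peak end (%), with 95% Wilson intervals, by the length of the stretch (left), by quartile of the TES pileup of the gene (middle) and by part of the gene from its start to its end (right). Sense stretches lie between 29.6 and 51.3%, and antisense stretches at or below 2.18%. The right panel shows sense stretches alone, which go from 46.8% in the first part to 33.8% in the last.

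Intronic A-stretch peaks were spread over 4008 genes, of which 2439 had 1, 1287 had 2 to 4 and 282 had 5 or more. In protein-coding genes 8.74% of 80913 intronic peaks preceded an A stretch. The largest number, 40 of 262 intronic peaks (15.3%), lay in RBFOX1, a neuronal splicing regulator of 2474 kb. At RBFOX1, 86 of 154 sense stretches had a peak, 32 of the 40 A-stretch peaks were 7SL-like and their pileup ranged from 5 to 21 reads. AUTS2, a gene of neuronal development, had 18 intronic A-stretch peaks, and so did ROBO1, a receptor of the axon guidance protein Slit. Its relative ROBO2 had 17. TIAM1, an exchange factor for Rac, and FHIT, which spans a common fragile site, had 16 each. WWOX, also at a fragile site, had 15. CDKAL1, a tRNA-modifying enzyme, and PLCB1, a phospholipase, had 14 each, and NRG1, a ligand of ErbB receptors, had 13. These genes are long, with 433 kb of intron in TIAM1 as the least, and their share of intronic peaks before an A stretch ran from 9.04% in ROBO2 to 22.7% in WWOX.

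Ranked per length, other genes led. Among the 275 protein-coding genes with at least 5 intronic A-stretch peaks, the median density was 1.55 per 100 kb of intron, with a range of 0.219 to 5.64. EFR3B, a membrane anchor for a lipid kinase, had the highest density, with 6 A-stretch peaks among 16 intronic peaks. FGD6, an exchange factor for Cdc42, followed with 5.34 per 100 kb and 7 of 19 peaks, and SPTBN4, a spectrin of neuronal membranes, with 4.96 and 5 of 15. IGF2BP3, an RNA-binding protein, and EIF2B3, a subunit of a translation initiation factor, had 4.49 and 4.48 per 100 kb. SMURF2, STRN, VAT1L, CTPS2 and CLIP1 had 4.13 to 4.39. VAT1L had the largest share, 8 of 19 intronic peaks (42.1%). In all of these but IGF2BP3 and EIF2B3, A-stretch peaks made up 33.3% or more of the intronic peaks, next to 8.74% over all protein-coding genes. The genes were picked for their number of A-stretch peaks per length, so high shares follow in part from the ranking.

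CDK12, a kinase that THZ531 binds, had 4 A-stretch peaks among its 9 intronic peaks, next to 8.74% over all protein-coding genes. This is 1 gene with few peaks, and its share was not tested. All lay in introns, none had a hexamer and all followed 7SL-like sequence. In the order of their positions their pileups were 15, 6, 8 and 10 reads and their −log10 q 10.9, 4.27, 6.57 and 7.91. The second of them was thus below the threshold of 5 used above. Of 5 sense stretches in CDK12 introns, 4 had a peak. CDK13, its closest relative, had 1 A-stretch peak among 26 intronic peaks, with 14 reads. CCNK, the cyclin partner of both kinases, had none, and neither did MYCN, which has a short gene body. Each of these 2 genes had only 1 intronic peak, so the absence carries little weight.

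BRCA1, BARD1, ATM and BLM, genes of the DNA damage response (DDR), had only 12 intronic peaks each. With so few peaks, and 8.74% over all protein-coding genes, counts of 0 and 2 are not read as a difference between them. BRCA1, BARD1 and ATM had 0 A-stretch peaks among 12 intronic peaks each, although 2 of 5, 2 of 2 and 2 of 3 of their sense stretches had some peak. BLM, a RecQ helicase, had 2 of 12, with pileups of 9 and 10 reads, both 7SL-like and without a hexamer. Of 162 names on the DDR list of the study, 151 matched a gene and 141 had a peak. A-stretch peaks were present in 48 of these genes, 82 in all, 10 with and 72 without a hexamer. Of their intronic peaks 8.65% preceded an A stretch, next to 8.74% over all protein-coding genes.

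Values are given for 3 of the DDR genes with the most A-stretch peaks. XRCC4, a factor of non-homologous end joining, had 5 of 19 intronic peaks, with 5 to 12 reads. TP53BP1, which acts at double-strand breaks, had 4 with 10 to 18 reads. RFC3, a subunit of the clamp loader, had 3 with 8 to 18 reads.

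A-stretch peaks were also counted in 3 other lists. Of 26 cleavage and polyadenylation factors 24 had a peak and 6 had A-stretch peaks, 8 of 138 intronic peaks (5.80%, 2.97 to 11.02%), all without a hexamer. SCAF8 and WDR33 had 2 each, and FIP1L1, a subunit that binds U-rich RNA, had 1 with 17 reads. Of 12 kinases and cyclins of the RNA polymerase II C-terminal domain 5 had 10 A-stretch peaks among 97 intronic peaks (10.3%, 5.70 to 17.9%). Next to CDK12 these included MNAT1, a partner of CDK7, with 3, and CCNT1, a partner of CDK9, with 1. Of 16 genes of adrenergic NB cells 4 had 7 of 174 intronic peaks (4.02%, 1.96 to 8.07%). ALK, a receptor kinase mutated in NB, had 4 of 123, and LIN28B and GATA3 had 1 each, with 16 and 18 reads. The other 15 genes of the list had 3 of 51 (5.88%, 2.02 to 15.9%), so the share of the list rests mainly on the peaks of ALK. The intervals of the first and second of these lists, and that of the last without ALK, include the 8.74% of all protein-coding genes.

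The 158 exonic A-stretch peaks lay mainly outside coding sequence. A coding sequence was overlapped by 30 of them (18.99%, 13.6 to 25.8%), compared with 52.2% of the other exonic peaks, a difference of -33.2 points (-38.6 to -26.3). Another 99 lay in noncoding exon parts of protein-coding genes and 29 in genes of other types. The strongest with a hexamer were in NFIC, a transcription factor, with 40 reads, in ZNF302, a zinc finger protein, with 30 and in NOVA1, a neuronal splicing factor, with 24. The strongest without were in PLXNA2, a semaphorin receptor, with 34 reads, in MAVS, an adaptor of antiviral signalling, with 30 and in TMEM19 with 25. The first 30 bases after the peak end are shown for one of each kind, with the richest 25 bases in capitals as far as they lie within them.
NFIC, chr19:3465051-3465429, forward strand: TAAAAAAAAAAAAAAAAAAAAAAAAggaag
PLXNA2, chr1:208026676-208026970, reverse strand: gaaattAAAAAAAAAAAAAAAAAGAGAAAG
The stretch was directly at the peak in NFIC and began 6 bases after it in PLXNA2. CEP43, PDE3A, PIAS2, YIPF4 and ENSG00000280138 had 2 exonic A-stretch peaks each, the highest number for any gene.

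At TES, 238 A-stretch peaks were found, 77 with and 161 without a hexamer. Their 3′ end lay within 25 bp of an annotated transcript end in 89 cases (37.4%, 31.5 to 43.7%), compared with 61.1% of the other TES peaks, a difference of -23.7 points (-29.7 to -17.4). The median distance was 128 bp and 8.5 bp. With a hexamer 49.4% and without one 31.7% were within 25 bp, 17.7 points apart (4.45 to 30.5). For 3 of them the first 30 bases after the peak end are shown, LRP1 and AUTS2 next to an annotated end and PIGS further away.
LRP1, chr12:57213233-57213365, forward strand: AAAAAAAAAAAAAAGAAAGAAAAAAagccg
AUTS2, chr7:70792335-70792485, forward strand: gcAAAAAAAAAAAAAAAAAAAAGTTAActa
PIGS, chr17:28553212-28553651, reverse strand: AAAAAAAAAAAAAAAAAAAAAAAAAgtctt
LRP1, a lipoprotein receptor, had 33 reads at an end 4 bp from the annotated one, with AATAAA 36 bp before it. AUTS2 had 41 reads exactly at an annotated end, with ATTAAA 35 bp before it. KPNB1, a nuclear import receptor, had the highest pileup of all A-stretch peaks, 54 reads, with CATAAA 57 bp before the end and 420 bp from an annotated end. PIGS, STOX2 and PBDC1 had no hexamer, with 38, 36 and 32 reads at 175, 345 and 270 bp from an annotated end. RNF149, a ubiquitin ligase, and ENSG00000280000 had 2 TES A-stretch peaks each.

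At TES the share differed between gene types. Of TES peaks of protein-coding genes 117 of 14325 (0.817%) preceded an A stretch, of those of processed pseudogenes 22 of 876 (2.51%, 1.66 to 3.77%), a difference of 1.69 points (0.832 to 2.96). Processed pseudogenes are genomic copies of spliced transcripts and often carry a copy of the tail. Of these 22 peaks 1 lay within 25 bp of an annotated end, the median distance was 192 bp, and 14 had a hexamer. Long noncoding RNA genes had 59 of 2393 (2.47%), 1.65 points above protein-coding genes (1.08 to 2.36). Small RNAs annotated as misc_RNA had 13 of 122 (10.7%, 6.33 to 17.4%). Of these, 8 were at genes named Y_RNA and 2 at Metazoa_SRP, which is 7SL-related. RN7SL788P, also 7SL-related, RNY4P34, another Y RNA copy, and VTRNA1-2 had 1 each.

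The labelled cell type was checked by TES peaks of marker genes, since no expression value per gene is given. Of 11 markers of adrenergic NB cells, 10 had a TES peak, and PHOX2A had none. Of 4 markers of other cells, PTPRC of leukocytes and PECAM1 of endothelium had none, while COL1A1 of fibroblasts and EPCAM of epithelium each had 1.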

How the data were processed

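Per the labels, poly(A) RNA of 8 libraries was treated with DNase and converted with a QuantSeq 3′ REV kit. The authors mapped trimmed reads with STAR 2.5.1b to GRCh38, merged all samples and called peaks with MACS2 2.1.1, with reads extended to 100 bp. The deposited list gives, per peak, a fold enrichment (a ratio of pileup to background) and its −log10 p and −log10 q. It has 0 columns per sample, no strand and no depth per library, so no value has a replicate, edgeR, planned for counts, was not run, and intervals cover counting error only.

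From these deposited values a whole pileup was recovered for 100% of peaks from the MACS2 formulas. Peaks were annotated with GENCODE 44 (basic transcripts) in the order TES, exon, intron, with 0 peaks past a chromosome end. The strand was taken from the gene. 7SL-like sequence was found with blastn 2.17.0 (E at most 0.001) against RN7SL1, read from GRCh38. Shares carry Wilson and their differences Newcombe intervals (95%), computed with SciPy 1.17.1 and tested on simulated data. Antisense genes are kept out by the rule on 1 strand.

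Named genes were, by rule, the 10 with the most and the 10 with the densest (of those with at least 5) intronic A-stretch peaks, the 5 with the most exonic and the 5 with the most TES ones, the 3 peaks of highest −log10 q per region with and without a hexamer, the leading genes of 4 lists (DDR 5, others 3), and CDK12, CDK13, CCNK, BRCA1, BARD1, BLM, ATM and MYCN. Some of these genes and some sequences are not reported here. Members, lists and rules were chosen with earlier results of these data known. Older list names were matched through RefSeq synonyms where these named 1 gene.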

Additional observations from a re-analysis of the deposited data

Results flagged for a closer look

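Peaks outside the rule also preceded A stretches, which are data that no comparison above uses. Of 12946 peaks with genes on both strands, 663 (5.12%) had a stretch after either end, and of 14487 peaks that overlap no gene 1684 (11.6%). Among peaks with genes on 1 strand, a stretch after either end was found in 8766 of 125588 (6.98%). Peaks with genes on both strands differed from these by -1.86 points (95% Newcombe interval -2.25 to -1.44) and peaks that overlap no gene by 4.64 points (4.11 to 5.19). These peaks have no strand, so the strand of their stretch relative to a transcript was not determined.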

How the results depend on the processing

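The 6 shares set against another set of peaks or stretches kept the direction of their difference under each of the 28 alternatives tried for them, and its interval excluded 0 each time. Several values moved by over 1.5 times. With at least 20 A the share of peaks before a stretch was 16.0% and with 25 A 0.615%, against 6.42% as reported. Moving the window 20 bp into the peak gave 15.7%. With AATAAA and ATTAAA only, 5.03% of A-stretch peaks had a hexamer in place of 16.8%, and within 40 bp 11.2%. Sense intronic stretches with a peak ranged from 31.6% (at least 20 A) to 53.8% (25 A). Processed pseudogene TES peaks before a stretch ranged from 1.75% (−log10 q of at least 5) to 7.99% (at least 20 A). The share in introns stayed between 94.3 and 96.5%, that after 7SL-like sequence between 68.9 and 77.3%, and the median pileup, which has no compared value, between 7 and 9 under its 4 alternatives. The comparison of THZ531 with DMSO was not run. No paired analysis was possible because the 8 libraries were merged before peak calling and the list has no column per library. The depth of single libraries is unknown, and shares over the 158 exonic and 238 TES A-stretch peaks have wide intervals.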
